A study of Mus musculus with 4 samples.

Results

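Protein kinase A is the enzyme through which cyclic AMP (cAMP) acts on most of its targets. The resting enzyme holds a pair of catalytic subunits bound to a pair of regulatory subunits, and cAMP binding to the regulatory subunits frees the catalytic ones. The regulatory subunits come in type I (alpha, encoded by Prkar1a, and beta, by Prkar1b) and type II (alpha, Prkar2a, and beta, Prkar2b), which differ in where anchoring proteins place the enzyme. In mouse muscle, type I alpha is known to be concentrated at the neuromuscular synapse, where cAMP signalling is linked to the turnover of the acetylcholine receptor. All probe sets annotated to Prkar1a, Prkar1b, Prkar2a, Prkar2b, the catalytic genes Prkaca and Prkacb, or the inhibitor genes Pkia and Pkig were taken, which gave 24 of the 45101 probe sets on the arrays for these 8 genes. The regulatory genes had 15 of them, the catalytic genes 5 and the inhibitors 4.

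The samples were total RNA of the mouse left hemi-diaphragm, the main muscle of breathing. There were 2 arrays of the synaptic region, the band of muscle that holds the nerve contacts, and 2 of the non-synaptic region. The labels give no strain, genotype, age, sex or treatment. They do not name the animals behind each array, so a p-value here speaks of the scatter of 4 arrays, and that scatter may be technical. Titles number the arrays of each region 1 and 2, used here as replicate numbers.

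Array medians lay between 658 and 769 intensity units. On each array 18.7% to 21.3% of the probe sets were raised to a floor of 158.9 (7.31 on the log2 scale). All 12 muscle fibre markers were measured, with summed intensities of 1680868 and 1494488 in the synaptic and 1544407 and 1674159 in the non-synaptic arrays. Arrays with the same replicate number were closer to each other (median absolute log2 difference 0.204 and 0.158) than arrays of the same region (0.351 and 0.298). The exact permutation test of 2 against 2 cannot give a p below 0.333, so tests came from limma's fit across 26480 probe sets.

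Of the kinase genes, Prkar1a had higher values in the synaptic region and Prkar2b lower ones, each on some of its probe sets. With all arrays, no block and dim probe sets left out, no probe set of the other 6 genes passed an unadjusted p of 0.05. Of the 24 probe sets, 20 passed the filter on dim signal (a mean log2 value of at least 8.87) and each of the 8 genes kept at least 1. At limma's adjusted p under 0.05 the calls were 0 higher and 0 lower among the 20, and 0.00378% higher and 0.00755% lower among all probe sets tested. With the replicate number as a block, the 2 bright Prkar1a probe sets passed (limma adjusted p = 0.00318 and 0.000400) and none of the others did. At an unadjusted p under 0.05, 2 of the 20 were higher (10%, against 0.653% of all probe sets tested) and 2 were lower (10%, against 0.332%). The 2 higher ones belong to the same gene, Prkar1a. As the members were chosen with earlier results of these data known, the higher share is not independent of the data. The 2 lower ones belong to Prkar2b and passed the filter through the non-synaptic arrays alone, so they had to differ and their count says nothing against the background. Both arrays of the synaptic region lay above both others for 3 of the 20 (15%, against 9.89% of all) and below both for 2 (10%, against 9.98%), shares near the background. The median difference was 0.03 over the 20 probe sets and -0.01 over all probe sets tested.

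**Figure D1:**
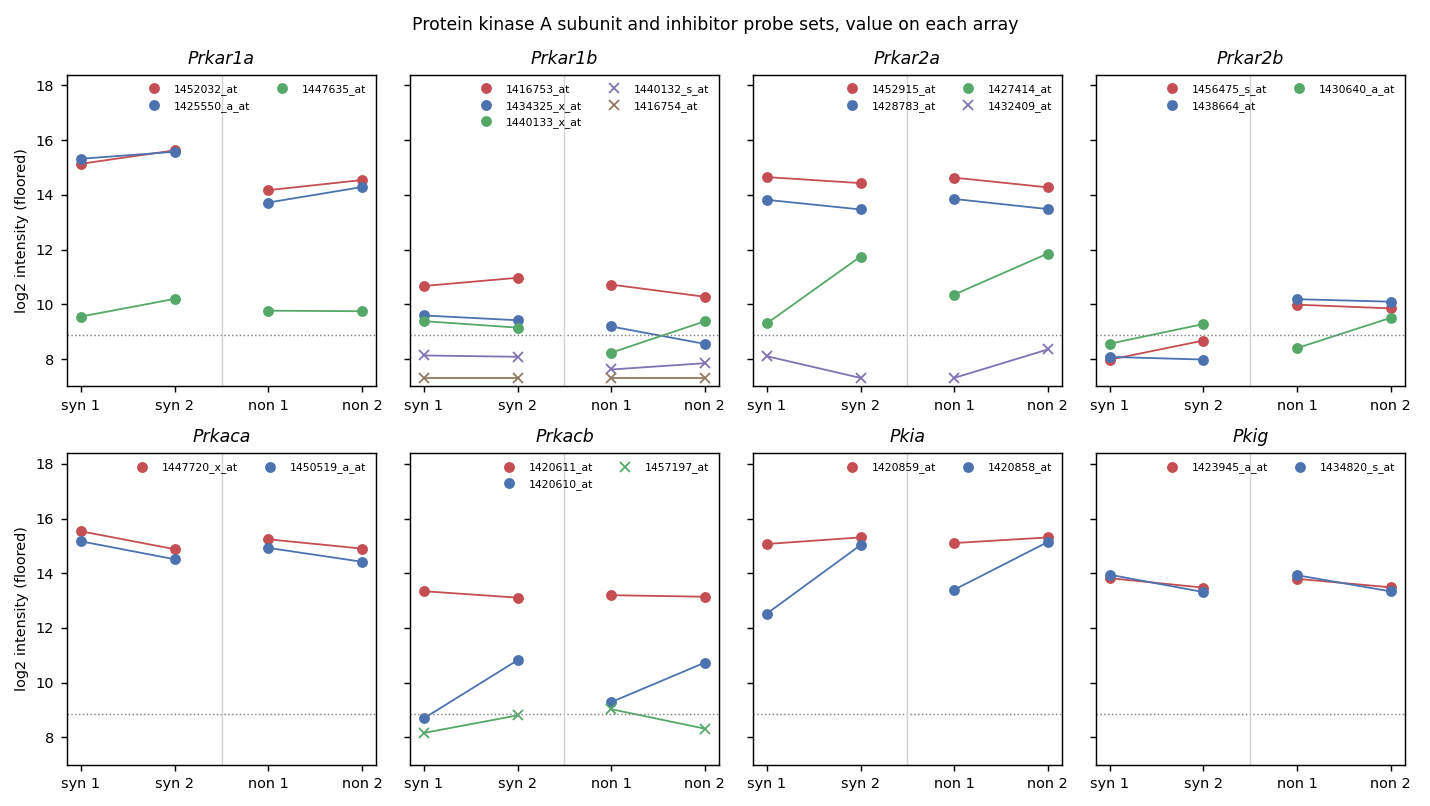
Floored log2 intensity (vertical axes) of each of the 24 probe sets on the 2 synaptic (syn) and 2 non-synaptic (non) arrays. Circles mark tested probe sets, crosses those under the filter (dotted line, 8.87), and lines join the arrays of a region. The bright Prkar1a probe sets step down from synaptic to non-synaptic arrays and a pair of Prkar2b probe sets steps up. Levels of different probe sets are not comparable.

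Prkar1a encodes the type I alpha regulatory subunit. Its brightest probe set, 1452032_at, read 36069 and 50675 intensity units on the synaptic arrays and 18486 and 23890 on the non-synaptic arrays. Both synaptic values lay above both others. The log2 difference was 1.02 ± 0.24 (SE, n = 2 arrays per region, limma unadjusted p = 0.00746, adjusted p = 0.9999, and 0.00318 with the replicate block), a level 2.03-fold higher, with a 95% interval of 0.41 to 1.64. The second bright probe set, 1425550_a_at, read 40957 and 48887 on the synaptic arrays against 13522 and 19993 on the others. The regions were again apart, by 1.44 ± 0.24 on the log2 scale (2.72-fold, interval 0.83 to 2.06, limma unadjusted p = 0.00171, adjusted p = 0.9999, and 0.000400 with the replicate block). The third probe set, 1447635_at, had 752 and 1177 units in the synaptic and 873 and 861 in the non-synaptic arrays, and so overlapped. Its difference was 0.12 (interval -0.73 to 0.97), so the probe sets of Prkar1a did not all show the separation.

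Within replicate number 1 the synaptic value of Prkar1a exceeded the non-synaptic one by 0.96 on 1452032_at and 1.60 on 1425550_a_at, and within number 2 by 1.08 and 1.29 on the log2 scale. The separation of the bright probe sets was thus present in each pair of arrays. With non-synaptic replicate 1 left out, the difference of 1452032_at was 0.84 and did not pass 0.05 (limma unadjusted p = 0.0561), while that of 1425550_a_at was 1.16 (unadjusted p = 0.0115). In an ordinary fit without moderation 1452032_at did not pass either (unadjusted p = 0.0793).

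Known genes of the synapse were higher in the same arrays. The acetylcholine receptor genes Chrna1 and Chrne differed by 1.97 ± 0.19 and 3.11 ± 0.67 on the log2 scale, acetylcholinesterase (Ache) by 2.58 ± 0.23 and the transcription factor gene Etv5 by 2.41 ± 0.21, against 0.28 ± 0.32 for Musk and 0.005 ± 0.24 for Rapsn. The genes with the profile nearest to 1452032_at over the 4 arrays, by Euclidean distance between log2 values centred on each gene's mean, were Kcnk2 (0.192), Afap1l2 (0.206), Ptn (0.245), Map9 (0.253) and Efhd1 (0.264). Kcnk2 encodes a potassium channel and Ptn the growth factor pleiotrophin. Their region differences ran from 0.88 to 1.04, a likeness that is a description of 4 arrays.

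Markers of Schwann cells, the glia of the nerve, moved with Prkar1a. Of 12 markers 9 had a probe set of their own, and their summed intensity was 106642 and 116481 on the synaptic arrays against 31175 and 33281 on the others. All 8 that passed the filter had a positive difference, with a median of 1.27. Of the 8, Ncmap and Egr2 passed the filter with both non-synaptic values under it, so the filter fixed the sign of their differences. None of the 9 was at the floor on both arrays of either region. The part of these cells in the difference of Prkar1a was not tested. In a piece of tissue, more cells of a type and more RNA per cell cannot be told apart. Summed motor axon markers were 2787 and 3365 on the synaptic and 3307 and 3209 on the non-synaptic arrays, of which 1 of 8 passed the filter.

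Prkar2b encodes the type II beta regulatory subunit, which in mouse is known as the main type II subunit of fat cells and of many neurons. Probe set 1438664_at read 271 and 253 units on the synaptic arrays and 1168 and 1096 on the non-synaptic arrays. The 2 regions did not overlap, and the arrays within each lay close together. The log2 difference was -2.11 ± 0.33 (SE, n = 2 arrays per region, limma unadjusted p = 0.00119, adjusted p = 0.771), a level 4.32-fold higher in the non-synaptic region. The second probe set, 1456475_s_at, had 252 and 409 units against 1016 and 925. Its difference was -1.59 ± 0.39 (limma unadjusted p = 0.00895), and the synaptic arrays again lay below both others. The third, 1430640_a_at, read 378 and 622 against 339 and 729, with a difference of -0.03 (interval -1.39 to 1.32), and its values went with the replicate number and not with the region.

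The 2 separated probe sets of Prkar2b were dim. Their synaptic log2 values, from 7.98 to 8.68, all lay under the filter of 8.87, so they entered the test through the non-synaptic arrays, and probe sets that enter so must differ. A higher floor, at the 40th percentile, gave differences of -1.27 and -1.05. With non-synaptic replicate 1 left out, both lay under the filter and were not tested, as 1438664_at also did with non-synaptic replicate 2 left out. Within each replicate number the synaptic value was lower, by -2.11 and -2.11 on 1438664_at and by -2.01 and -1.18 on 1456475_s_at.

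Some fat cell markers were lower on the synaptic arrays, as the separated Prkar2b probe sets were. Of 9 such markers 7 had a probe set of their own, and their summed intensity was 8673 and 5737 on the synaptic arrays against 23621 and 19156 on the others. Lep, the gene of the hormone leptin, and Pck1, an enzyme of glyceroneogenesis, lay at the floor value in both synaptic samples, and Adipoq, the adiponectin gene, read 186 and 189 there against 9045 and 7243. Adipoq, Pck1 and Retn, the resistin gene, passed the filter with synaptic means under it, so the sign of their differences was fixed by the filter. Pparg, the master factor of fat cells, overlapped between regions (-0.26), and Lipe, the hormone-sensitive lipase that protein kinase A phosphorylates, did so too with 6857 and 3578 against 7759 and 4164 units. Single markers of other lists were lower in the synaptic region as well. Myh4, a myosin of fast fibres, read 32001 and 40267 units against 85890 and 93886 (difference -1.32 ± 0.18, limma unadjusted p = 0.000564). The brown fat gene Ucp1 lay at the floor in both synaptic samples and read 6332 and 1985 in the others, so the filter fixed its sign too. The fibroblast marker Pi16 differed by -1.02 and the smooth muscle myosin Myh11 by -0.77. Medians were 0.01 over 12 muscle fibre, -0.26 over 6 brown fat, -0.04 over 7 fibroblast and -0.16 over 6 smooth muscle and pericyte markers. Of these markers 7, 2, 1 and 0, in that order, had a positive difference. The part of any of these cells in the difference of Prkar2b was not tested. By the distance used for Prkar1a, the profiles nearest to the brightest Prkar2b probe set, 1456475_s_at, were Gm35161 (0.408) and Myh4 (0.419). Leng9 (0.501), Pkn3 (0.518) and Syt8 (0.532) followed. This distance takes in the size of a difference, so a marker with a much larger or smaller difference cannot be near.

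**Figure D2:**
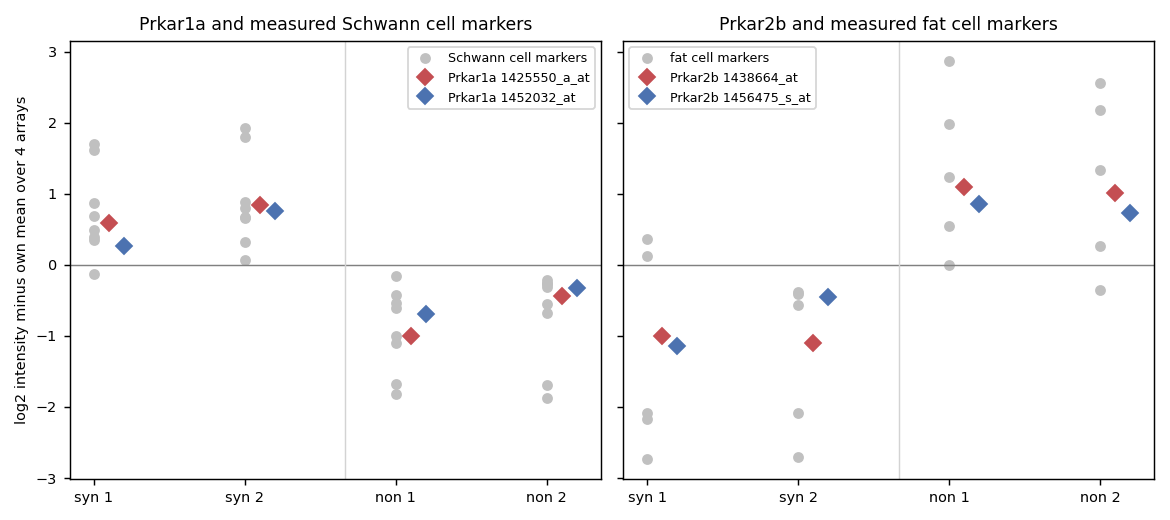
Log2 intensity minus each probe set's own mean over the 4 arrays (vertical axis) for the 2 bright Prkar1a probe sets with the 8 measured Schwann cell markers, and for 2 Prkar2b probe sets with the 5 measured fat cell markers, on each array. Prkar1a and Schwann cell markers are higher on the synaptic arrays, and Prkar2b and most fat cell markers are lower there.

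Prkar1b and Prkar2a, the remaining regulatory genes, showed no region difference past the test. Of 5 Prkar1b probe sets 3 were tested. Probe set 1434325_x_at read 773 and 685 units on the synaptic arrays against 585 and 376, and so kept the regions apart, at a log2 difference of 0.63 ± 0.38 (interval -0.33 to 1.59, limma unadjusted p = 0.152). Its suffix marks probes that can match other transcripts. The brightest Prkar1b probe set, 1416753_at, gave 1632 and 2008 against 1689 and 1241 units, which overlapped (difference 0.32, interval -0.39 to 1.03), as did 1440133_x_at (0.46). Of those under the filter, 1440132_s_at read 281 and 271 units against 197 and 231, apart and higher but not tested, and 1416754_at was at the floor on all 4 arrays. The intervals of the 3 tested Prkar1b probe sets include the difference of 1.02 seen on the brightest Prkar1a probe set.

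Prkar2a, the type II alpha subunit, had 25751 and 22096 units on the synaptic and 25382 and 19849 on the non-synaptic arrays on 1452915_at. Its values overlapped, and the difference of 0.09 had an interval of -0.42 to 0.59. Probe set 1428783_at gave 14472 and 11339 against 14797 and 11444 (difference -0.02, interval -0.60 to 0.55). The difference of 1427414_at was -0.58 with an interval of -2.92 to 1.76, since its 2 arrays of each region lay far apart. Probe set 1432409_at stayed under the filter, with 2 of 4 arrays at the floor. The intervals of the bright Prkar2a probe sets end below the difference of 1.02 seen on the brightest Prkar1a probe set.

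The catalytic subunits carry the kinase activity. Prkaca read 47419 and 30119 units on the synaptic and 38695 and 30563 on the non-synaptic arrays on 1447720_x_at, and 36749 and 23335 against 31120 and 21891 on 1450519_a_at. The regions overlapped on both, with differences of 0.14 (interval -0.55 to 0.82) and 0.17 (-0.59 to 0.92). Prkacb, on its brightest probe set 1420611_at, had 10383 and 8827 against 9394 and 9031 units, a difference of 0.06 (interval -0.41 to 0.52). Probe set 1420610_at gave -0.25 with an interval of -2.39 to 1.89, and 1457197_at, from 287 to 523 units, lay under the filter.

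Pkia and Pkig encode small inhibitor proteins that bind the free catalytic subunit and carry it out of the nucleus. On 1420859_at Pkia read 34361 and 40625 units on the synaptic against 35196 and 40581 on the non-synaptic arrays, a difference of -0.02 (interval -0.46 to 0.42). Its second probe set, 1420858_at, read 5894 and 33398 against 10778 and 36152. The values followed the replicate number, and the region difference of -0.49 had an interval of -2.94 to 1.96. Pkig overlapped on both probe sets, with 14460 and 11377 against 14216 and 11454 units on 1423945_a_at (difference 0.01, interval -0.54 to 0.56) and a difference of -0.003 (-0.80 to 0.80) on 1434820_s_at.

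**Figure D3:**
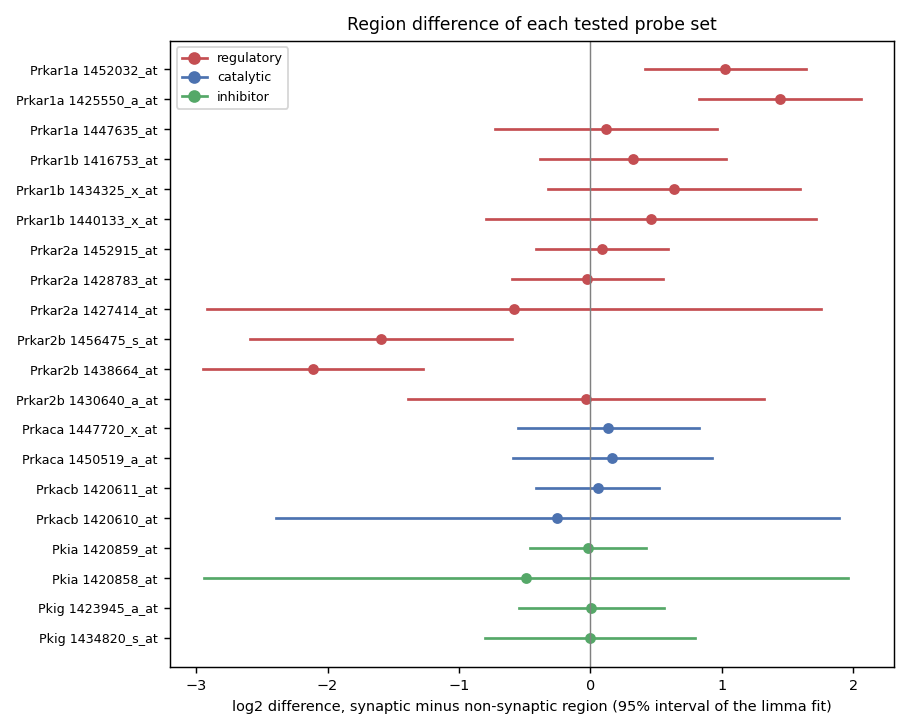
Log2 difference of the synaptic minus the non-synaptic region (horizontal axis) for the 20 tested probe sets, as points with the 95% interval of limma's moderated fit, coloured by role. The intervals of 2 Prkar1a and 2 Prkar2b probe sets leave out 0 before any adjustment, and those of the other 16 include it.

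Over the other 6 genes, the 14 tested probe sets had differences from -0.58 to 0.63, and the smallest unadjusted limma p was 0.152. Their median difference was 0.03. Prkar2a 1427414_at and Pkia 1420858_at passed an unadjusted p of 0.05 under 2 alternatives. With the replicate block they kept -0.58 and -0.49 (limma unadjusted p = 0.0363 and 0.0128). With synaptic replicate 2 left out they gave -1.80 and -1.74 (unadjusted p = 0.0115 and 0.0139), and with synaptic replicate 1 left out 0.64 and 0.76, so their direction rests on which array is kept. The widest intervals, on 1 probe set each of Prkar2a, Prkacb and Pkia, include the difference of 1.02 of the brightest Prkar1a probe set in both directions.

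**Figure D4:**
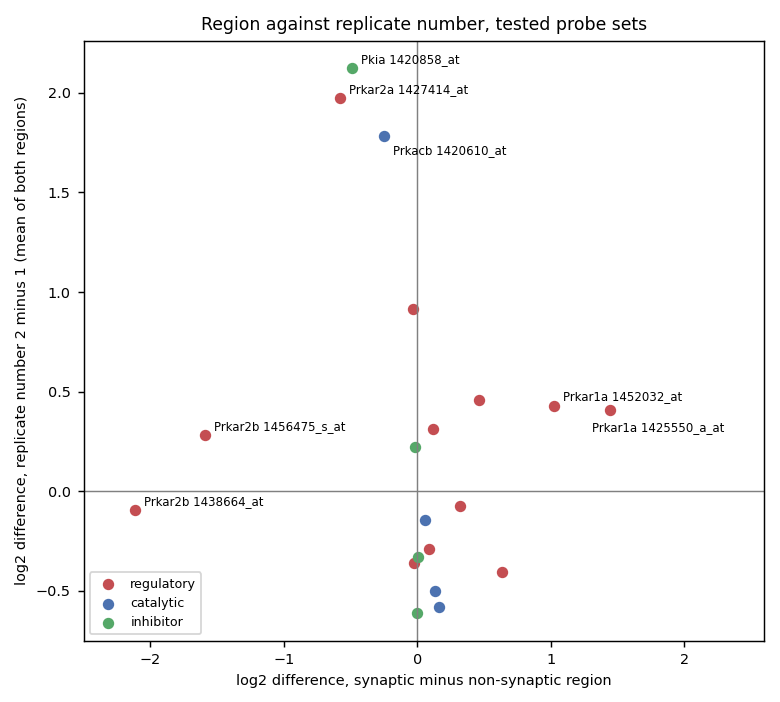
Log2 difference between regions (horizontal axis) and between replicate numbers 2 and 1, averaged over both regions (vertical axis), for the 20 tested probe sets, coloured by role. Single probe sets of Pkia, Prkar2a and Prkacb stand highest on the vertical axis, and those of Prkar1a and Prkar2b spread along the horizontal axis.

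Promoter windows of the members were read from RefSeq (GRCm38.p6), each from 250 bases before to 50 bases after an annotated transcript start. These windows were searched for TTCCGG, the N-box known from promoters of synaptic genes in mouse, which contains the core bound by ETS factors, and for TGACGTCA, the palindromic cAMP response element, on both strands and with no overlap between these motifs. Of the 8 genes 7 had a window, 22 windows in all, and Pkia had none here. The windows below belong to Prkar1a and Prkar2b, whose arrays separated in opposite directions, and to Prkacb, which did not separate and holds the most N-box matches in a window. Capitals mark the motif letters.
Prkar1a, chr11:109650699-109650998, plus strand: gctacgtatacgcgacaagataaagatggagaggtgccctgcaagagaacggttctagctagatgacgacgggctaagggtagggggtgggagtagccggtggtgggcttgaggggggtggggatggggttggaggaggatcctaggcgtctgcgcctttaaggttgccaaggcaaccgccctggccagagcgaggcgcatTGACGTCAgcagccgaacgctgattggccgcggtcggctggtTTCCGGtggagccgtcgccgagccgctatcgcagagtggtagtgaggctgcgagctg
Prkar2b, chr12:32061228-32061527, minus strand: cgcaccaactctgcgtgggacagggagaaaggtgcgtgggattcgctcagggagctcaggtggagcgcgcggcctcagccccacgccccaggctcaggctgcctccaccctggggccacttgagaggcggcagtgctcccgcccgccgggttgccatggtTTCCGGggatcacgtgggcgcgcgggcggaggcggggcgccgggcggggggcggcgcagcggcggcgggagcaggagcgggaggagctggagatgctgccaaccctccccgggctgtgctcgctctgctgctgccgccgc
Prkacb, chr3:146812897-146813196, minus strand: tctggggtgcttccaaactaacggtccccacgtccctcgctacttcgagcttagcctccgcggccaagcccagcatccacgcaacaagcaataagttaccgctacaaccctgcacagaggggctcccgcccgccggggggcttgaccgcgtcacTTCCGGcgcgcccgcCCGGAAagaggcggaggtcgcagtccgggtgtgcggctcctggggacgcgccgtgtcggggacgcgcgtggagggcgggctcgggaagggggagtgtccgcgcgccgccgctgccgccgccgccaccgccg
The Prkar1a window was 1 of 6 for that gene and the only one of the 6 with an N-box, whose letters begin 7 bases before the start. Its cAMP response element begins 49 bases before the start, and the same letters fall in an overlapping window of a neighbouring start. The Prkar2b match lies 90 bases before its start and the Prkacb matches 96 and 81 bases before.

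The N-box letters were in 6 of the 22 windows, from 5 of the 7 genes (Prkar1a, Prkar1b, Prkar2b, Prkaca and Prkacb), against 14.9% of all 32817 windows and 16.6% of all genes with a window. All genes with a window numbered 26994, so the members had more windows per gene and more chances of a match. Shares by gene are therefore not like for like. Genes that separated and genes that did not both held the N-box. Among the reference genes of the synapse 1 of 5 with a window held it, Chrne, 76 bases before the start. The cAMP response element was in windows of Prkar1a alone among the 7 genes, against 2.03% of all genes, with the same limit. By window it was in 2 of the 22, which overlap and share its letters, against 1.79% of all windows. A match is a description of letters and says nothing of binding.

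The rest of the cAMP pathway was described from 9 lists of 117 genes, of which 94 passed the filter. By limma 0 passed an adjusted p of 0.05, though Pck1 did so under 4 alternatives. At an unadjusted p under 0.05, 3 were higher and 2 lower, or 3.19% and 2.13%, against 0.825% and 0.372% of all 12363 genes. Of all genes, 10.6% had the regions apart and higher and 9.85% apart and lower, against 9 and 14 of the 94 (9.57% and 14.9%). The 3 higher genes were Calcrl, Ramp1 and Akap11 and the 2 lower ones Pde1a and Pck1. Pck1 passed the filter through the non-synaptic arrays alone, so its sign was fixed in each lower count. The median over the 94 genes was -0.0039 and that over all genes 0.0048.

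Receptors that raise cAMP, with the Gs protein, had 2 of 13 measured genes higher at an unadjusted p under 0.05, 0 lower and a median of 0.07. Calcrl, the receptor for the peptide CGRP, which motor nerve terminals release, read 5604 and 6813 units on the synaptic arrays against 3513 and 3836, a log2 difference of 0.75 ± 0.21 (limma unadjusted p = 0.0144). Ramp1, the partner protein that gives Calcrl its affinity for CGRP, read 19830 and 17702 against 12885 and 13670, a difference of 0.50 ± 0.17 (unadjusted p = 0.0299). The regions were apart for both genes of this receptor on these probe sets. Their second probe sets overlapped, at 0.67 ± 0.83 and 0.95 ± 0.56. Calcr, the calcitonin receptor, was apart too at 0.54 ± 0.32 without passing. The other partner Ramp2 differed by 0.07, the stimulatory G protein gene Gnas by 0.05 and Vipr2 by -0.58, all with overlap. Neither call held under every choice of arrays. Calcrl did not pass with synaptic replicate 2 or either non-synaptic array left out (limma unadjusted p = 0.0876, 0.105 and 0.0595). Ramp1 did not pass with synaptic replicate 1 or either non-synaptic array left out (unadjusted p = 0.140, 0.208 and 0.146), nor with median centring (0.0745) or without the intensity trend (0.0692).

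Anchoring proteins that hold the kinase in place had a median of 0.05 over 20 measured of 26 genes, with 1 higher and 0 lower at an unadjusted p under 0.05. The higher one, Akap11, an anchor that binds type I and type II regulatory subunits, read 10684 and 10659 units against 5699 and 7791, a difference of 0.68 ± 0.22 (limma unadjusted p = 0.0263). The regions were apart. With non-synaptic replicate 1 left out, the difference was 0.45 (limma unadjusted p = 0.216), and Akap11 did not pass without either synaptic array (0.0715 and 0.0601). Gskip (0.19), the intermediate filament protein gene Synm (-0.18) and Akap6 (-0.03) had regions apart without passing. Map2 gave 0.37, Pde4dip 0.12 and the muscle anchor Cmya5 0.001, all overlapping on their brightest probe sets. Further Gskip probe sets gave -0.01, 0.007 and -0.07, all with overlap. Those of Pde4dip gave -0.24 and -0.08, apart and lower, and -0.02 with overlap. A further Synm probe set gave -0.33, apart and lower.

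Adenylyl cyclases, which make cAMP, had 8 of 10 measured, none past an unadjusted p of 0.05 by limma, and a median of 0.06. Adcy1 differed by 0.65 ± 0.41, Adcy7 by 0.26, Adcy3 by -0.16, Adcy6 by 0.12 and Adcy2 by -0.10, and the regions overlapped for all 8. Phosphodiesterases, which break cAMP down, had 15 of 16 measured, with 0 higher and 1 lower at an unadjusted p under 0.05 and a median of -0.15. The lower one was Pde1a, a calcium-activated enzyme, at 475 and 477 units against 805 and 1251 (difference -1.08 ± 0.35, limma unadjusted p = 0.0278). Pde1a had the regions apart. It gave -0.76 with non-synaptic replicate 2 left out (limma unadjusted p = 0.186), and did not pass without synaptic replicate 1 either (0.0576). For 5 of the 15 (33.3%, against 9.85% of all genes) the synaptic arrays were below both others (Pde1a, Pde3b at -0.49, Pde8b at -0.55, Pde4d at -0.17 and Pde7b at -0.23). For Pde10a (0.39) and Pde4a (0.26) they were above, and Pde2a gave 0.06 with overlap. These values are those of the brightest probe sets. Further Pde10a probe sets gave -0.15 and -0.26 with overlap, and a further Pde8b probe set gave -0.05 with overlap. A dimmer Pde2a probe set gave -0.79, with the synaptic arrays below both others (limma unadjusted p = 0.0376). The remaining Pde2a probe set gave -0.07 with overlap.

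**Figure D5:**
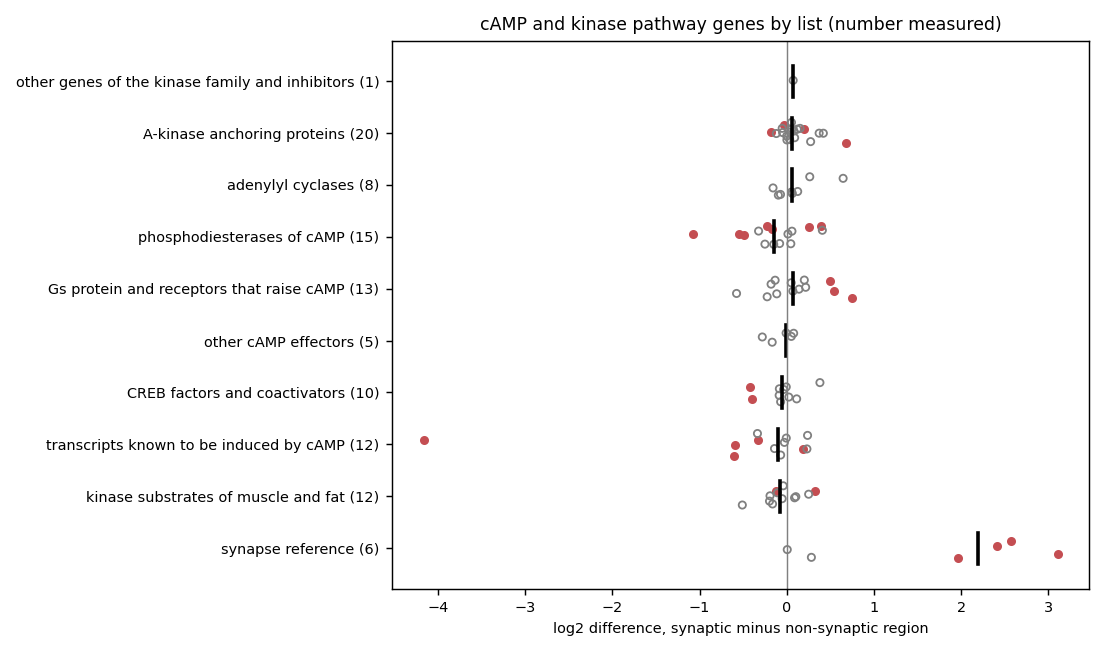
Log2 difference of the synaptic minus the non-synaptic region (horizontal axis) for each measured gene of the 9 pathway lists and of the synapse reference genes, 1 point a gene, with the list's median as a vertical line. Filled points mark genes whose regions did not overlap; the 9 pathway medians lie between -0.15 and 0.07 and that of the synapse reference at 2.19.

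Targets and other effectors were described by the same counts. CREB factors and coactivators had 10 of 11 measured, none past an unadjusted limma p of 0.05 and a median of -0.05. Crtc3 at -0.40 and the kinase gene Sik2 at -0.42 were apart and lower. A further Crtc3 probe set gave 0.24, apart and higher, and the 2 further Sik2 probe sets gave 0.16 and -0.43 with overlap. Crtc2 gave 0.38, Sik3 0.11 and Crebbp -0.04. Of 12 transcripts known to be induced by cAMP, all measured, 0 were higher and 1 lower at an unadjusted p under 0.05, and 9 had a negative difference. The median of -0.11 moved to -0.43 without synaptic replicate 2 and to -0.32 without non-synaptic replicate 2. The lower one was Pck1, which the fat cell list also holds. Its synaptic values lay at the floor and its other values were 2656 and 3053, at least 17.9-fold higher in the non-synaptic region (limma adjusted p = 0.0963). It passed with the replicate block (limma adjusted p = 0.000320), with median centring (0.0443) and without synaptic replicate 1 or 2 (0.0486 and 0.0132). With either non-synaptic array left out it lay under the filter. Rgs2 (-0.59), Nr4a3 (-0.60) and Nr4a1 (-0.33) were apart and lower without passing. With Pck1, 4 of the 12 were apart and lower (33.3%, against 9.85% of all genes). Pck1 passed the filter through the non-synaptic arrays alone, so its sign was fixed and it says nothing against that share. Further Rgs2 probe sets gave -0.69 and -0.55 with overlap. Nr4a2 (0.18) was apart and higher without passing, Ppargc1a gave -0.34 with overlap and Dusp1 -0.03. Further Ppargc1a probe sets gave -0.23 and -0.31, apart and lower, and -0.08 and -0.03 with overlap.

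Substrates of the kinase in muscle and fat had 12 of 13 measured, none past an unadjusted limma p of 0.05, and a median of -0.08. The calcium release channel gene Ryr1 differed by 0.10, the calcium channel Cacna1s by -0.16, glycogen synthase (Gys1) by 0.09, the phosphorylase kinase subunit Phka1 by -0.51, Ppp1r1a by 0.25 and Ppp1r3a by 0.32. Of the 12, Ppp1r3a had regions apart with higher synaptic values and Pln, at -0.12, with lower ones. Other cAMP effectors had 5 of 9 measured, with a median of -0.01 and no p under 0.05, among them Bves (-0.28), Popdc2 (0.05), Popdc3 (0.08) and Hcn2 (-0.17). Of the remaining relatives of the kinase, Prkx differed by 0.07 and the inhibitor gene Pkib lay under the filter.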

How the data were processed

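The authors deposited 1 linear intensity for each probe set on each array. For the summary method and the scaling, the step taken is not given in the sources used here. Because the trimmed mean (2% at each end) was 2500 throughout, the arrays were not scaled again, so a shift common to most genes is invisible. Values were raised to the 20th percentile of all values, log2 was taken, and control probe sets and those with a mean log2 value under the 40th percentile (8.87) were left out. The region contrast used limma 3.58.1 and R 4.3.3 (lmFit, eBayes with an intensity trend, 2-sided, Benjamini-Hochberg over 26480 probe sets). The fit, tested on simulated data, had 2 residual degrees of freedom. Intervals are 95% intervals of that fit, with no adjustment for multiple tests. Precision is limited by having 4 arrays.

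Symbols are those of the platform annotation, which can be old, updated by Entrez identifier with RefSeq (GRCm38.p6), and the members kept their symbols. Pathway and marker genes were read from their brightest probe set, and the text names, per list, at most 4 genes by smallest p plus at most 2 by highest mean, all synapse reference genes and the 5 profiles nearest to Prkar1a. Akap6, Pde4a, Pde7b, Nr4a2 and Pln, which make up small counts, were named after their values were seen. So were Egr2 and the 5 profiles nearest to Prkar2b. The members, lists and rules were chosen with earlier results of these data known.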

Additional observations from a re-analysis of the deposited data

How the results depend on the processing

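At an adjusted p under 0.05, the counts of kinase probe sets stayed at 0 higher and 0 lower by limma under each alternative but 1. With the replicate block (replicate number as a term) 2 were higher, both of Prkar1a (adjusted p = 0.00318 and 0.000400), and Prkar2b did not pass (0.0775 and 0.348). The same-numbered arrays deviated together from their region means (correlation 0.634 over the 26480 probe sets), but the labels do not say what a number marks. Other rules gave 2 higher and 2 lower at an unadjusted p under 0.05, and 3 and 2 by regions that did not overlap. Without the filter on dim signal the unadjusted rule gave 3 higher, which added a probe set of a gene other than Prkar1a, and 2 lower. At the unadjusted rule the higher count was 1 without moderation, and from 1 (non-synaptic replicate 1 out) to 2 leaving out an array. The lower count was 0 with the filter at the 60th percentile, which removed the dim Prkar2b probe sets, 4 with the block (Prkar2a 1427414_at and Pkia 1420858_at added), and from 0 (non-synaptic replicate 1 out) to 4 (synaptic replicate 2 out) leaving out an array. Pathway genes at that rule went from 3 higher and 2 lower to 5 and 11 with the block, to 0 lower with the stricter filter, and to between 0 and 2 higher and 1 and 5 lower leaving out an array (0 higher without non-synaptic replicate 1, 5 lower without synaptic replicate 2). The cause was not tested. Of 248 recomputed member values 27 changed sign, on 14 probe sets. In none of the 27 was the unadjusted p under 0.05 as reported or under that alternative, but 2 of the 14, Prkar2a 1427414_at and Pkia 1420858_at, passed with the same sign under others. Of 112 recomputed pathway medians 11 moved by more than the replicate spread, furthest that of cAMP-induced transcripts, from -0.11 to -0.43 without synaptic replicate 2.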

Other observations

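Some probe sets of the kinase genes followed the replicate number instead of the region, a pattern noticed after their values were seen. For Pkia 1420858_at, the arrays numbered 2 exceeded those numbered 1 by 2.50 in the synaptic and 1.75 in the non-synaptic region on the log2 scale, while Pkia 1420859_at exceeded them by 0.24 and 0.21. For Prkar2a 1427414_at the excess was 2.44 and 1.50, while the other bright probe sets of that gene were lower on the arrays numbered 2, by -0.22 and -0.35 on 1452915_at. Prkacb 1420610_at exceeded by 2.12 and 1.44, against -0.23 and -0.06 on 1420611_at. An excess over 1 in both regions was seen for these 3 of the 20 tested probe sets and for 3.12% of all tested, and the opposite for 0 and 0.563%. For Actb, 3' probes over 5' probes, a sign of RNA quality, came to 1.37 and 1.27 on the arrays numbered 1 and 1.19 and 1.20 on those numbered 2. Its part in the pattern was not tested.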
